A study of Mus musculus with 8 samples.

Results

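This report follows 10 genes that encode receptors for dying cells and synaptic debris and the secreted proteins that bridge debris to those receptors, in astrocytes of the mouse brain. They are Mertk, Axl, Gas6, Pros1, Mfge8, Itgav, Itgb5, Megf10, Gulp1 and Lrp1. The genes were taken by symbol and matched by Ensembl identifier to the gene counts, and all 10 were found among 55417 gene rows. All 10 were also among the 11781 genes with enough counts to be tested. The choice used no measured value of its own, but it was made with earlier results of these data known.

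Gene counts came from 8 libraries of astrocytes isolated by flow sorting, 4 from cortical and 4 from subcortical tissue. The animals were 4 mice, each labelled wild type (WT) and aged postnatal day 29, and each mouse gave 1 library per region. Mice 2 and 3 were female and mice 1 and 4 male, and no treatment, transgene or Cre is named for any group. The sources used here do not give the sorting gate. A row for the reporter Tdtomato is in the counts and holds 0 in all 8 libraries.

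Astrocytes are glial cells that clear transmitters and ions around synapses, and they also engulf synapses and cell debris. Dying cells and weak synapses expose the lipid phosphatidylserine on their surface. The receptor kinases MERTK and AXL, of the TAM family with TYRO3, do not bind this lipid themselves but through the vitamin K-dependent proteins GAS6 and protein S (gene Pros1). MFG-E8 is a second bridge, which links the lipid to the integrin of the subunits αV and β5. MEGF10 is a scavenger-type receptor of astrocytes that acts with the adaptor GULP1, and LRP1 is a large endocytic receptor for lipoproteins, proteases and debris that can also bind GULP1.

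Levels are in CPM (counts per library, set to a common total), with each library's size scaled by the trimmed mean of M-values (TMM). The libraries read transcript 3′ ends, so that a level is not larger for a longer transcript, though priming at the ends may still differ between genes. Fold changes are cortical over subcortical. A gene is called where edgeR's quasi-likelihood test gave a Benjamini-Hochberg adjusted p under 0.05 over all tested genes. Unless stated, the fit held region alone and did not pair libraries by mouse. Gene counts summed to 3537852 to 4060891 in cortical libraries and 2484717 to 3829804 in subcortical ones. A count of 0 in a library allows up to 0.701 to 1.44 CPM, for counting error only. In bulk samples such as these, fewer cells of a type and less RNA per cell cannot be told apart.

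Of the members, Mertk and Mfge8 were called higher and Lrp1 lower in cortical than in subcortical libraries. For these 3 members the stretch before the RefSeq start of transcription is shown. Each is 250 bases, 5′ to 3′ on the strand of the gene, from RefSeq's GRCm38.p6, an older build than GRCm39, which the submitters' processing notes name for the counts. The bases just after the RefSeq start occur in a GENCODE M21 transcript of the same gene for Mfge8 and Lrp1, but in none for Mertk, whose annotated start therefore differs between RefSeq and GENCODE. Which start these cells use was not measured. Capitals mark GC boxes (GGGCGG on either strand, so CCGCCC where the box is on the opposite strand). The windows are chr2:128698665-128698914 on the plus strand for Mertk, chr7:79149061-79149310 on the minus strand for Mfge8 and chr10:127621149-127621398 on the minus strand for Lrp1.
Mertk: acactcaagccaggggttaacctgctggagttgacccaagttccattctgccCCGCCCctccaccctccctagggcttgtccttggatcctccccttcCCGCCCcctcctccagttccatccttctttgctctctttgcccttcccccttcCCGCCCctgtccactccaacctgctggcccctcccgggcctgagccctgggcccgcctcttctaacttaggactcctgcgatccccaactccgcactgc
Mfge8: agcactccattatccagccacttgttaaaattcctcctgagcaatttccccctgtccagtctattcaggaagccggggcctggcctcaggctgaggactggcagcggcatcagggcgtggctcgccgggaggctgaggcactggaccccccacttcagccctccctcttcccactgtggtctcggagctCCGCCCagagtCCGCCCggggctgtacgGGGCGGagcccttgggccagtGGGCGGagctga
Lrp1: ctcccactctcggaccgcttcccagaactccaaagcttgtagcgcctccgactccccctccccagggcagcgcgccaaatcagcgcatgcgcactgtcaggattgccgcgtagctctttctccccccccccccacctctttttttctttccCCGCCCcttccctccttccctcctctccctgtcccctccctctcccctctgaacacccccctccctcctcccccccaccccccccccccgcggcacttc

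The Mertk window held 3 GC boxes, the Mfge8 window 4 and the Lrp1 window 1. Of the 9 members whose window was searched 8 held at least 1, and Itgav held 0. The same letters occur in 32.7% of the 32851 promoter windows of that table. Their GC content was 63.6% for Mertk, 65.2% for Mfge8 and 67.2% for Lrp1, against a median of 52.4% over all windows. The other motifs searched, on both strands, were TAATTA (the core that homeodomain factors bind), CACGTG (an E-box), AGGTCA (a nuclear receptor half-site), CATTGT (a SOX core) and TTGGCA (an NFI half-site). They had no match in any of the 9 windows and occur in 4.84%, 6.02%, 14%, 10.7% and 12.3% of all windows. These matches are a description of letters in these windows and say nothing on the binding of a factor.

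The first comparison set cortical against subcortical astrocytes. Mertk and Mfge8 were higher in cortical cells, by 3.36-fold and 4.11-fold, Lrp1 was 1.61-fold lower, and the other 7 members were not called. Thus 1 receptor kinase and 1 bridging protein were both higher in cortical cells, without a call for Axl, for either TAM ligand or for either integrin subunit. The TAM receptor outside the 10 members, Tyro3, was called lower and is given below. Of all tested genes 6.81% were called, 3.42% higher and 3.39% lower in cortical cells, against 2 higher and 1 lower among the 10 members. The median log2 fold change was 0.24 over the members and -0.01 over all tested genes. The members held 453 to 140949 counts over the 8 libraries, against a median of 562 for tested genes, and all but Gulp1 were above that median.

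**Figure D1:**
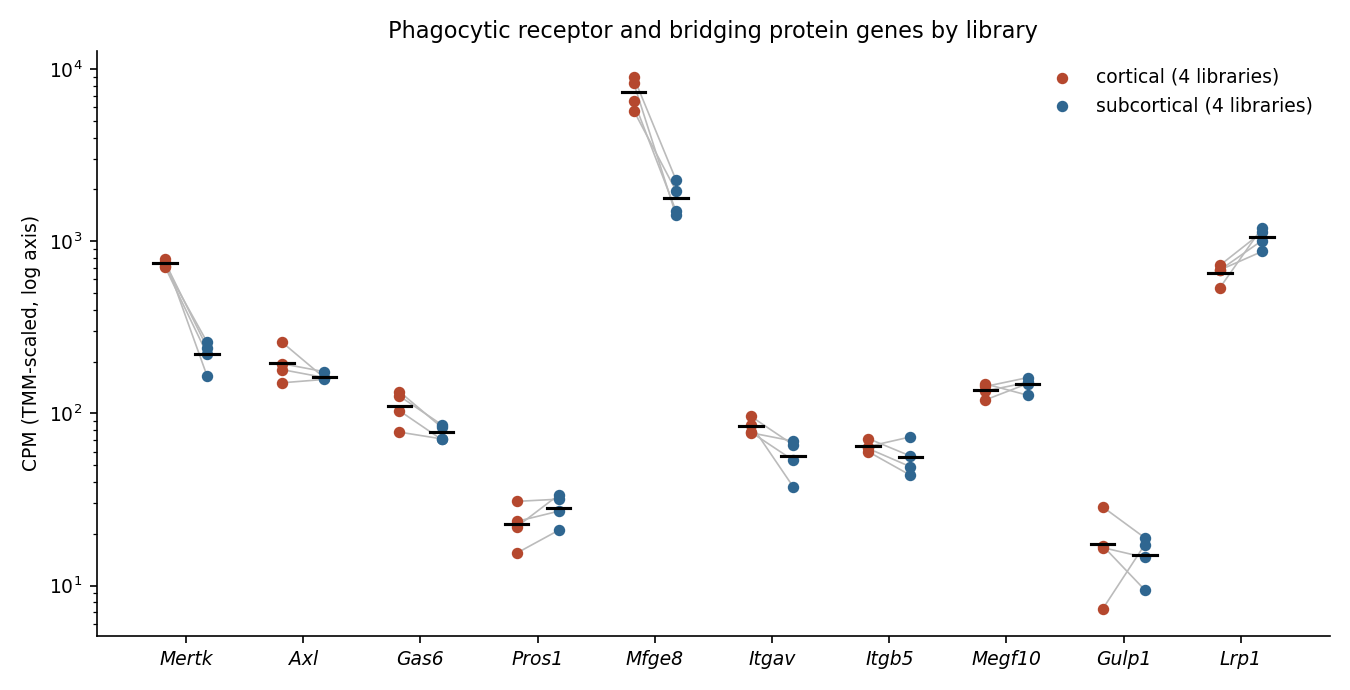
Level of each gene in each library, in TMM-scaled CPM on a log axis. Points are libraries, black bars group means (n = 4 per region), and grey lines join the 2 libraries of a mouse. The cortical and subcortical points of Mertk, Mfge8, Itgav and Lrp1 do not overlap.

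Mertk (ENSMUSG00000014361), the TAM receptor best known for the uptake of dying cells, had 791.9, 712.8, 758.0 and 714.9 CPM in the cortical libraries of mice 1 to 4. In the subcortical libraries of the same mice it had 164.8, 221.1, 241.1 and 259.4 CPM. The groups were far apart, with the lowest cortical library at 712.8 CPM and the highest subcortical one at 259.4 CPM. Its log2 fold change was 1.75 (SE 0.17, 95% interval 1.40 to 2.10, edgeR adjusted p = 2.46e-07). The cortical libraries varied little around their mean, with a coefficient of variation of 5.10%, against 18.5% in the subcortical ones. By mean level Mertk stood above 99.1% of tested genes in cortical and 95.9% in subcortical libraries.

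Axl (ENSMUSG00000002602), the second TAM receptor of the group, had 194.5, 258.9, 150.7 and 179.7 CPM in the cortical libraries of mice 1 to 4. It had 174.8, 161.0, 157.6 and 161.6 CPM in their subcortical libraries. The cortical values lay on both sides of the subcortical ones, and 3 of 4 mice were higher in cortex. The log2 fold change of 0.26 (SE 0.18) had a 95% interval of -0.11 to 0.63, which leaves out a change as large as that of Mertk (edgeR adjusted p = 0.522). Within a library, Mertk made up 73.4 to 83.4% of the summed Mertk and Axl level in cortex and 48.5 to 61.6% in subcortex. Mertk and Axl together averaged 940.3 ± 45.5 CPM across the cortical and 385.3 ± 34.4 CPM across the subcortical libraries (SD, n = 4).

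The ligands of these receptors were not called. By mean level Gas6 stood above 89.5% of tested genes in cortical and 84.2% in subcortical libraries, and Pros1 above 53.6% and 60.0%. Gas6 (ENSMUSG00000031451) had 77.9, 134.0, 103.7 and 126.2 CPM in the cortical libraries of mice 1 to 4, and 71.2, 83.1, 70.6 and 86.1 CPM in the subcortical ones. It was higher in cortex in 4 of 4 mice, but the cortical library of mouse 1 lay within the subcortical range. The log2 fold change was 0.51 (SE 0.20, 95% interval 0.09 to 0.92), with an edgeR adjusted p of 0.163 over all genes. In GENCODE M21 the 3′ end of Gas6 lies within Tmem255b, a gene of the opposite strand, and the sources used here do not say whether counting used strand. Tmem255b itself had 8 counts over the cortical and 0 over the subcortical libraries. Those counts do not show whether reads of the shared stretch were left out of Gas6, so its level could be too low.

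Pros1 (ENSMUSG00000022912), the protein S gene, had 23.6, 21.9, 15.4 and 30.8 CPM in the cortical libraries of mice 1 to 4, and 27.0, 33.6, 20.97 and 31.8 CPM in the subcortical ones. The ranges overlapped, and Pros1 was lower in cortex in 4 of 4 mice. Its log2 fold change was -0.30 (SE 0.30, 95% interval -0.92 to 0.31, edgeR adjusted p = 0.685). Gas6 and Pros1 together averaged 133.4 ± 27.6 CPM across the cortical and 106.1 ± 13.2 CPM across the subcortical libraries (SD, n = 4).

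Mfge8 (ENSMUSG00000030605), which encodes the secreted bridge MFG-E8, was the most abundant member in every library. It had 5735, 6519, 8293 and 8965 CPM in the cortical libraries of mice 1 to 4. In their subcortical libraries it had 1968, 1502, 1426 and 2275 CPM. Each cortical library was above each subcortical one, and the log2 fold change was 2.04 (SE 0.18, 95% interval 1.67 to 2.42, edgeR adjusted p = 8.15e-08). It exceeded 99.9% of tested genes in cortical and 99.6% in subcortical libraries. Mfge8 made up 75.0 to 81.0% of the summed level of the 10 members in cortical libraries and 46.0 to 54.2% in subcortical ones. Without it the other 9 members summed to 2032 ± 93.1 CPM across the cortical and 1818 ± 129.5 CPM across the subcortical libraries (SD, n = 4).

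The integrin subunits that MFG-E8 engages were at far lower levels and were not called. Itgav (ENSMUSG00000027087), the αV subunit, had 77.2, 86.0, 77.8 and 96.1 CPM in the cortical libraries of mice 1 to 4, and 69.1, 37.5, 53.5 and 65.8 CPM in the subcortical ones. These groups did not overlap, as was so for 12.2% of all tested genes (6.54% with every cortical library above and 5.64% with every one below) and for 4 of the 10 members (3 above and 1 below). Even so, the log2 fold change of 0.57 (SE 0.22), although its 95% interval of 0.12 to 1.02 left out 0, was not called, at an edgeR adjusted p of 0.141. Itgb5 (ENSMUSG00000022817), the β5 subunit, averaged 64.6 ± 4.92 CPM across the cortical and 55.6 ± 12.8 CPM across the subcortical libraries (SD, n = 4). Its ranges overlapped, at 60.0 to 71.5 CPM in cortical and 43.7 to 73.0 CPM in subcortical libraries, and its 95% interval on the log2 scale was -0.24 to 0.67 (edgeR adjusted p = 0.698). The ratio of Mfge8 to the sum of both subunits was 38.6 to 58.4 in cortical and 11.3 to 20.8 in subcortical libraries.

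Lrp1 (ENSMUSG00000040249) went the other way. It had 536.1, 680.5, 680.7 and 724.7 CPM in the cortical libraries of mice 1 to 4. The subcortical libraries of these mice had 1196.7, 1010.2, 872.6 and 1129.8 CPM. The groups did not overlap, and the log2 fold change was -0.68 (SE 0.16, 95% interval -1.01 to -0.35, edgeR adjusted p = 0.00777). Mouse 1 had both the lowest cortical and the highest subcortical value, and without its 2 libraries the log2 fold change was -0.53 and the call was lost (edgeR adjusted p = 0.121). A fold change above 1.5 was not shown for Lrp1 (edgeR adjusted p = 0.865 against a fold of 1.5), whereas Mertk (9.83e-06) and Mfge8 (1.72e-06) passed that test. The ratio of Lrp1 to Mertk within a library was 0.68 to 1.01 in cortical and 3.62 to 7.26 in subcortical libraries.

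Megf10 (ENSMUSG00000024593), the astrocyte engulfment receptor, differed little between the regions. It had 119.8, 135.0, 143.4 and 148.4 CPM in the cortical libraries of mice 1 to 4, and 149.0, 151.4, 161.4 and 127.6 CPM in the subcortical ones. The ranges overlapped, 3 of 4 mice were lower in cortex, and the 95% interval of the log2 fold change was -0.46 to 0.24 (edgeR adjusted p = 0.825). Its adaptor gene Gulp1 (ENSMUSG00000056870) was the lowest member, with 16.6, 7.30, 17.1 and 28.7 CPM in cortical and 14.6, 17.3, 9.44 and 18.9 CPM in subcortical libraries. It had 453 counts over all libraries, and its coefficient of variation was 50.2% in cortical and 27.6% in subcortical ones. Its 95% interval was wide, at -0.64 to 1.06 on the log2 scale (edgeR adjusted p = 0.868), so its direction is not known.

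**Figure D2:**
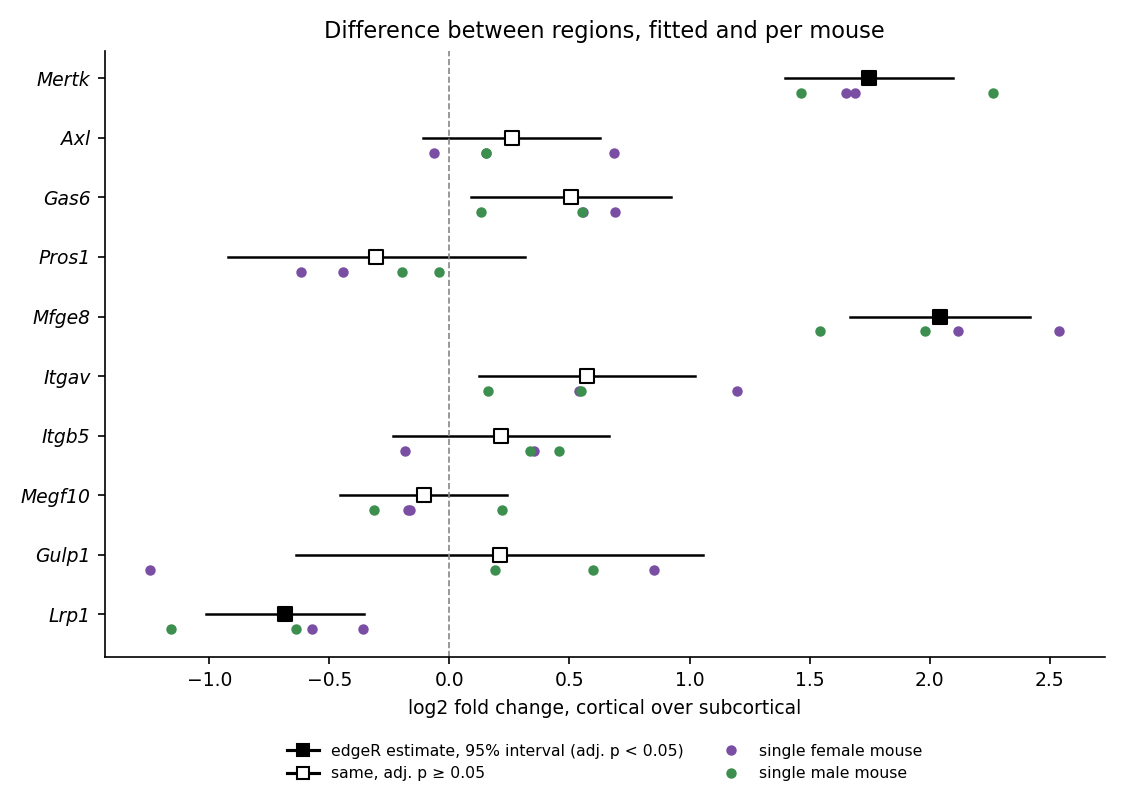
Difference between regions for each gene on the log2 scale. Squares and lines give the edgeR estimate and its 95% interval (filled where adjusted p is under 0.05), and the coloured points under them are single mice. Mertk and Mfge8 lie above 1 in all 4 mice, and Lrp1 lies below 0 in all 4.

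Within mice, the log2 ratio of cortical to subcortical level ran from 1.46 to 2.26 for Mertk and from 1.54 to 2.54 for Mfge8. The mice were not in the same order for the 2 genes, since mouse 1 had the highest ratio for Mertk and the lowest for Mfge8. For Lrp1 the ratios ran from -1.16 in mouse 1 to -0.36 in mouse 3.

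By the size of the difference between their log2 levels over the 8 libraries, each centred on its mean, the genes nearest to Mertk among 8390 were Mdga1 (root mean square difference 0.15), Scara3 (0.17) and Pde8b (0.17). For Mfge8 they were Fam171b (0.22), Dio2 (0.22) and Timm10 (0.22). All 8 libraries share the difference in region, which dominates such a likeness.

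Other cell types also express several of these genes, so marker lists were read in the same libraries. Microglia are known to express Mertk, Gas6 and Itgb5. Their 14 markers summed to 187.6 to 420.1 CPM in cortical and 135.6 to 237.9 CPM in subcortical libraries, against 31950 to 33167 and 20860 to 22603 CPM for 10 astrocyte markers. Of the 12 tested microglial markers 3 were higher in cortex (Cx3cr1, Csf1r and C1qa) and 0 lower. Mertk had 758.0 CPM in the cortical library with the lowest microglial sum (mouse 3) and 714.9 CPM in the one with the highest (mouse 4). Both libraries are cortical, so these values do not bear on the difference between regions. Oligodendrocyte markers summed to 826.5 to 1335 CPM in cortical and 2210 to 5585 CPM in subcortical libraries, with 7 of 9 lower in cortex. The subcortical library of mouse 1, which had the highest sum, had the most Lrp1, at 1196.7 CPM. The one with the lowest sum, that of mouse 4, had 1129.8 CPM. In cortex the libraries with the highest and lowest sums, of mice 4 and 2, had 724.7 and 680.5 CPM of Lrp1. The lowest Lrp1, 536.1 CPM, was in the cortical library of mouse 1, whose sum was 1160 CPM. Without the subcortical library of mouse 1 the log2 fold change of Lrp1 was -0.62 (edgeR adjusted p = 0.0339). Each remaining subcortical library still had a higher oligodendrocyte sum (at least 2210 CPM) than any cortical one (at most 1335 CPM). That fit therefore cannot tell apart the part of these cells.

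Pericyte and smooth muscle markers summed to 463.2 to 1025 CPM in cortical and 321.5 to 1189 CPM in subcortical libraries, with 0 of 6 called. The subcortical library with the highest sum, that of mouse 3, had the least Mfge8, which does not bear on the difference between regions. Endothelial markers reached at most 12.3 CPM over cortical and 22.0 CPM over subcortical libraries, and Cdh5 and Tek had 0 counts in all 8. Markers of perivascular macrophages summed to at most 0.50 and 3.34 CPM. Neuronal markers summed to 97.2 to 172.9 and 72.7 to 122.8 CPM, oligodendrocyte precursor markers to 29.5 to 44.9 and 24.99 to 46.2 CPM, and ependymal markers to 67.0 to 129.6 and 106.9 to 137.0 CPM. By an exact two-sided permutation test over libraries, of which the smallest possible p is 0.0286, the astrocyte and the oligodendrocyte sums differed (exact p = 0.0286 each) and the other 7 did not pass (exact p = 0.0857 to 0.914). Single markers did not all follow their list. Of the 10 astrocyte markers 3 were called higher in cortex (Slc1a2, Slc1a3 and Glul, which have the highest cortical levels of the list) and 1 lower, the water channel gene Aqp4, at 483.3 ± 92.8 CPM across the cortical and 1047 ± 212.0 CPM across the subcortical libraries (2.17-fold lower, edgeR adjusted p = 0.000228). Of 8 tested neuronal markers Slc17a7 was higher (15.8 against 1.15 CPM, edgeR adjusted p = 0.00195) and Nefl lower (12.1 against 39.9 CPM, edgeR adjusted p = 0.00243). Of 5 ependymal markers Foxj1 was lower (12.2 against 33.5 CPM, edgeR adjusted p = 0.00417), and 0 of 3 precursor markers and 0 of 1 endothelial marker tested were called. The part of these cells in the results on the members, and on the other genes of engulfment given below, was not tested.

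**Figure D3:**
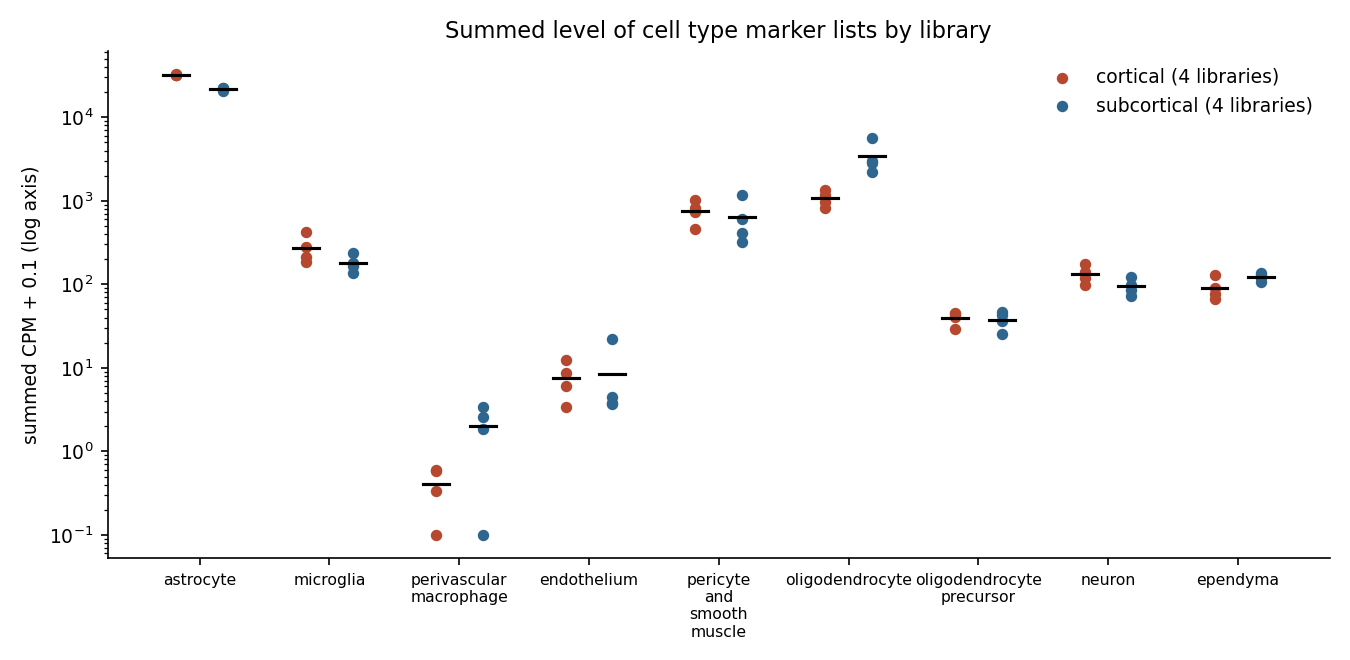
Summed CPM of each cell type's marker genes in each library, with 0.1 added for the log axis. Points are libraries and black bars group means (n = 4 per region). Oligodendrocyte markers lie lower in all cortical libraries, and microglial sums overlap between the regions.

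Other genes of engulfment were read in 10 lists of 125 genes, which were also drawn up with earlier results known. Of these genes 96 had enough counts to be tested. Of the 96, 7 were higher in cortex, 8 lower and 81 not called, which is 15.6% called against 6.81% of all tested genes. The 96 held 68 to 426825 counts over the libraries, against a median of 562 for all tested genes. The shares were not matched for abundance, on which the chance of a call depends. The median log2 fold change was -0.03 over the 96, against -0.01 over all tested genes.

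Among 5 tested genes listed as receptors for dying cells or as related to such receptors, 2 fell and 0 rose. Tyro3, the remaining TAM receptor, averaged 33.8 ± 7.45 CPM across the cortical and 61.4 ± 14.6 CPM across the subcortical libraries (SD, n = 4), so that it was lower in cortical cells while Mertk was higher. Adgrb3, an adhesion receptor related to the phosphatidylserine receptor BAI1, averaged 91.1 ± 13.9 CPM across the cortical and 156.4 ± 40.1 CPM across the subcortical libraries (± SD, n = 4). The gene of BAI1 itself was tested and not called. The edgeR adjusted p was 0.038 for Tyro3 and 0.0164 for Adgrb3. The call of Tyro3 was lost without cortical 1, 2 or 4 or subcortical 1, 3 or 4 (edgeR adjusted p = 0.0505 to 0.134), and that of Adgrb3 without cortical 1, 2 or 3 or subcortical 2 (0.053 to 0.0822).

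Of 10 tested bridging proteins and opsonins 2 rose. Clu, the chaperone clusterin, averaged 3907 ± 543.2 CPM across the cortical and 2385 ± 294.9 CPM across the subcortical libraries (SD, n = 4), with an edgeR adjusted p of 0.00362. The complement gene C1qa, which is also on the microglial list, averaged 30.4 ± 11.3 CPM across the cortical and 12.9 ± 5.18 CPM across the subcortical libraries (SD, n = 4, edgeR adjusted p = 0.0382). Its call was lost without cortical 1, 2 or 4 or subcortical 3 or 4 (edgeR adjusted p = 0.0584 to 0.17).

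Of 4 tested other integrin subunits 3 fell, with a median log2 fold change of -0.80 over the 4. Itgb8, another partner of αV, averaged 101.8 ± 8.73 CPM across the cortical and 184.4 ± 20.9 CPM across the subcortical libraries (± SD, n = 4). The laminin receptor subunits Itga6 and Itga7 had log2 fold changes of -0.75 (SE 0.16) and -1.24 (SE 0.23). The edgeR adjusted p was 0.00198 for Itgb8, 0.00408 for Itga6 and 0.00134 for Itga7.

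Of 19 tested genes of engulfment signalling 1 rose and 1 fell. Dnm2, the dynamin that pinches off vesicles, was higher by 0.87 on the log2 scale (SE 0.26), at an edgeR adjusted p of 0.0439. Blocking on the mouse moved that edgeR adjusted p to 0.051. Elmo2, which activates Rac with DOCK1, fell by 0.58 on that scale (SE 0.16), at an edgeR adjusted p of 0.0339. The call of Dnm2 was lost without cortical 2, 3 or 4 or subcortical 1, 2 or 3 (edgeR adjusted p = 0.06 to 0.149), and that of Elmo2 without cortical 2, 3 or 4 or subcortical 1 or 3 (0.0705 to 0.134).

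Of 8 tested scramblases and flippases, which move phosphatidylserine between the membrane leaflets, 0 were called. The most abundant, the flippase subunit gene Tmem30a, averaged 158.8 CPM over cortical and 149.8 CPM over subcortical libraries. Among 2 tested genes that hold engulfment back 1 rose. This was Cd47, whose product is the signal that healthy cells show to phagocytes, at 216.2 ± 21.9 CPM across the cortical and 117.4 ± 10.01 CPM across the subcortical libraries (SD, n = 4, edgeR adjusted p = 0.00124).

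Of 10 tested members of the LRP1 family and its partners 1 fell, Sorl1, a sorting receptor, at 219.4 ± 23.0 CPM across the cortical and 399.3 ± 65.0 CPM across the subcortical libraries (SD, n = 4, edgeR adjusted p = 0.00173). Of 6 tested genes of the vitamin K cycle and of receptor shedding 1 rose, the protease gene Furin, higher by 0.81 on the log2 scale (SE 0.24), at an edgeR adjusted p of 0.0462. Its call was lost without any single library but subcortical 3 (edgeR adjusted p = 0.0501 to 0.14). Of 7 tested lipid-sensing nuclear receptors 0 were called, with Rxra the most abundant with 25.3 CPM over cortical and 31.6 CPM over subcortical libraries.

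Of 25 tested phagosome and lysosome genes 2 rose and 1 fell. Npc1, the lysosomal cholesterol exporter gene, averaged 312.6 ± 26.4 CPM across the cortical and 150.2 ± 19.8 CPM across the subcortical libraries (SD, n = 4), with an edgeR adjusted p of 0.00016. Grn, the progranulin gene, rose by 0.68 on the log2 scale (SE 0.17), at an edgeR adjusted p of 0.0166, and lost its call without cortical 3 or subcortical 3 (edgeR adjusted p = 0.0964 and 0.0515 in that order). Ctsl, a lysosomal protease gene, averaged 170.2 ± 7.76 CPM across the cortical and 292.0 ± 26.2 CPM across the subcortical libraries (SD, n = 4, edgeR adjusted p = 0.00231).

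**Figure D4:**
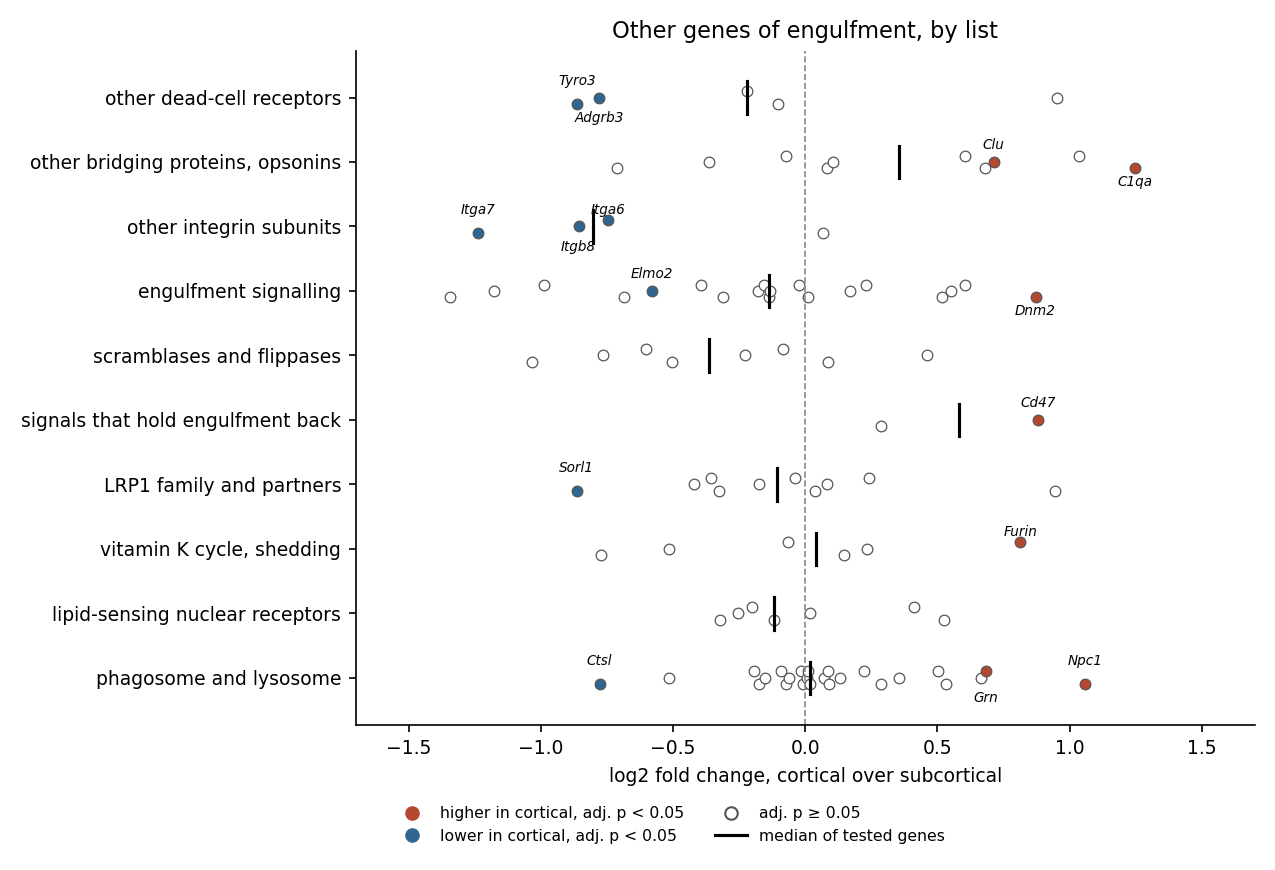
Log2 fold change of every tested gene of the 10 lists, cortical over subcortical. Filled points passed an adjusted p of 0.05, and black bars are list medians. The 15 called genes lie between -1.24 (Itga7) and 1.25 (C1qa).

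The mice also allowed a comparison of females with males, with the 2 libraries of each mouse summed, so that 2 mice stood against 2. None of the 10 members was called (0 of 10, also at an unadjusted p under 0.05, by edgeR's quasi-likelihood test), while 0.0373% of 13402 tested genes were. DESeq2 also called 0 members. The log2 fold change of females over males was 0.05 for Mertk (95% interval -0.32 to 0.41), 0.02 for Mfge8 (-0.34 to 0.39) and -0.12 for Lrp1 (-0.48 to 0.24). The widest interval was that of Gulp1, with 12.6 CPM in females and 20.2 CPM in males (log2 fold change -0.68, 95% interval -1.51 to 0.15).

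The region difference was set apart by sex in 1 fit with 2 libraries per sex and region. Mertk had a log2 fold change of 1.67 in females and 1.83 in males, and Mfge8 one of 2.34 in females and 1.79 in males. Lrp1 had -0.47 in females (edgeR adjusted p = 0.417) and -0.88 in males (edgeR adjusted p = 0.0396). The difference between the sexes in these region effects was -0.16 for Mertk (95% interval -0.88 to 0.56), 0.55 for Mfge8 (-0.14 to 1.24) and 0.42 for Lrp1 (-0.25 to 1.08). Tested as an interaction, 0 members and 0% of all tested genes were called with edgeR. At an unadjusted p under 0.05 there were 0 members and 403 of 11781 tested genes. With the mouse as a block there were 0 members and 397 of the same 11781.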

How the data were processed

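RNA was measured in 8 libraries made with a QuantSeq 3′ kit, per the labels' protocols. Each sample has a table of whole-number gene counts, used as the authors deposited it. GRCm39, STAR 2.6.0, HTSeq 0.9.0, FastQC 0.11.5 and DESeq2 1.35.0 are named in the submitters' processing notes, without settings. The 5 HTSeq summary rows stayed out; reads without a feature were 30.2 to 40.7% of a library. A normalized table of 8 sample columns was not used here. Symbols were matched for 52083 of 55417 rows.

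Region was tested in R 4.3.3 with edgeR 4.0.16: low genes were dropped by filterByExpr (10 counts in 4 libraries, 15 in total), followed by TMM factors, quasi-likelihood tests and Benjamini-Hochberg adjustment at 0.05, after the same code was tested on simulated data. Intervals are at 95%. The main fit held region alone and treated all libraries as independent, and a paired fit with the mouse as a block was an alternative. The members and lists were chosen with earlier results of these data known. Named genes are all members, the called genes of each list (at most 5) or else its most abundant, and the 3 genes nearest to Mertk and Mfge8 with a mean of at least 10 CPM. Alternatives used limma 3.58.1, DESeq2 1.42.0, other scaling, filters and covariates, thinning, and libraries left out.

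Same-numbered samples come from 1 mouse, so the numbers pair them; the 2 libraries' deviations from their region's mean had correlations of 0.0247 to 0.0656 within mice and -0.0935 to 0.0522 between mice. Replicates had correlations of 0.88 to 0.911, and no pair agreed within sampling noise (chi-square over degrees of freedom 12.2 to 25.2).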

Additional observations from a re-analysis of the deposited data

Results flagged for a closer look

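In 70 groups of 4 libraries checked for a library far from the other 3, 2 stood out, where chance flags about 1 in 20. The members themselves had none. Sorl1 had 301.8 CPM in the subcortical library of mouse 2 and 429.4 to 434.6 CPM in the other 3 subcortical libraries (gap over range 0.961). The endothelial markers summed to 22.0 CPM in the subcortical library of mouse 3 and to 3.62 to 4.33 CPM in the other 3 (0.962).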

How the results depend on the processing

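Over 23 alternative settings Mertk and Mfge8 were called in all, with log2 fold changes of 1.60 to 1.86 and 1.79 to 2.34. Lrp1 was called in 21 (-0.88 to -0.47) and missed the threshold without mouse 1 and in females alone. Here and below, the contrast for females or males alone came from the fit by sex that held all 8 libraries. The 7 other members were called in none of them. Gulp1 changed sign without cortical 4 (-0.14, in a range of -0.14 to 0.46 over single libraries left out and 0.01 to 0.53 over mice) and in females alone (-0.12). With libraries or mice left out, 2 members were higher each time and 0 to 1 lower, 474 to 775 genes were called over all (474 without mouse 1), and of the other engulfment genes 3 to 6 were higher and 5 to 8 lower. Blocking on the mouse (the paired fit) gave 885 called genes, 770 of them among the 802, and it changed no call of a member and, of the named list genes, only that of Dnm2. In females alone 301 genes were called, with 0 members lower and 3 list genes higher and 1 lower; in males alone 303 genes, with 1 list gene higher and 2 lower. At an adjusted p of 0.01 the count was 477. Against a fold of 1.5 there were 0 members lower. Without the low-count filter sex had 15 called genes in place of 5 and the interaction 1 in place of 0, none of them members. Furin also lost its call without the filter (edgeR adjusted p = 0.0513) and in thinned libraries (0.0624), and Dnm2 with limma-voom (0.0603). The cause of these changes was not tested. Gulp1 and Pros1 had 453 and 682 counts in all, and the parts of depth and of spread between libraries in their wide intervals were not told apart.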
